A study of Mus musculus and Homo sapiens with 14 samples.

Results

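Neutrophil granule and calprotectin genes were followed in the mouse samples of a study of DNA methyltransferase inhibitors in T-cell and NK/T-cell lymphoma. The set was chosen by gene symbol and holds 10 genes: S100a8, S100a9, Ngp, Ltf, Camp, Lcn2, Mmp8, Mmp9, Retnlg and Csf3r. All 10 are present among the 50559 genes of the tumour table and the 55969 of the cultured-cell table. The tumour libraries came from P3 and P0 tumours grown from EL4, which is a line derived from a T-cell lymphoma of the mouse, with 2 libraries per group, and all were labelled WT in genotype. What P3 and P0 stand for is not given in the sources used here, nor whether a library held 1 tumour or several. The cultured libraries came from EG7-OVA, an EL4 derivative that expresses ovalbumin, with 2 libraries each for azacytidine at 1.5 µM, decitabine at 0.2 µM and the solvent DMSO. Cells were dosed at 0, 24 and 48 h and collected at 72 h. NKYS libraries were not used here. Tumour RNA was not sorted, so that it holds transcripts of host cells beside those of the lymphoma, whereas the cultures were of a single line.

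Neutrophils are made in the bone marrow, where they fill successive sets of granules as they mature. The primary granules, filled first, carry myeloperoxidase and elastase. The secondary and tertiary granules follow with lactoferrin, neutrophilic granule protein, the cathelicidin peptide, lipocalin 2 and the matrix metalloproteases. S100A8 and S100A9 pair to form calprotectin, which binds calcium, zinc and manganese, makes up much of the neutrophil cytosol and also signals through TLR4 and RAGE once released. C/EBP factors, above all C/EBP epsilon for the secondary granules, and PU.1 are known to drive these genes, and G-CSF acting on CSF3R drives the production of the cells. S100a8, S100a9 and Lcn2 are also made outside neutrophils, in monocytes and stressed epithelium among others, and Mmp9 is made by many cells, activated T lymphocytes among them.

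The positions of the genes in the mm10 genome are those of the GENCODE vM21 annotation. S100a8 occupies chr3:90668978-90670035 on the plus strand and S100a9 chr3:90692632-90695721 on the minus strand, with 22.6 kb between them. Camp (chr9:109847379-109849617, minus), Ngp (chr9:110419747-110423012, plus) and Ltf (chr9:111019271-111042767, plus) lie in this order on chromosome 9, with gaps of 570 kb and 596 kb. Mmp8 lies far from them on the same chromosome (chr9:7558456-7568485, plus). Lcn2 (chr2:32384633-32388252, minus) and Mmp9 (chr2:164940780-164955850, plus) are on chromosome 2, Retnlg is at chr16:48872621-48874496 and Csf3r at chr4:126024550-126044440. All are annotated as protein coding, and none overlaps another annotated gene.

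The promoter windows of 4 genes that were higher together in P3 tumours are shown, since they let the motifs of the factors named above be seen beside the values that follow. Each runs 5′ to 3′ from 250 bases before to 50 bases after the RefSeq transcript start on GRCm38.p6. The windows are chr3:90668821-90669120 on the plus strand for S100a8, chr3:90695672-90695971 on the minus strand for S100a9, chr9:110419558-110419857 on the plus strand for Ngp and chr9:7558179-7558478 on the plus strand for Mmp8. Capitals mark matches to the C/EBP letters TTGCNNAA or to the PU.1 letters GAGGAAG, on either strand.
S100a8: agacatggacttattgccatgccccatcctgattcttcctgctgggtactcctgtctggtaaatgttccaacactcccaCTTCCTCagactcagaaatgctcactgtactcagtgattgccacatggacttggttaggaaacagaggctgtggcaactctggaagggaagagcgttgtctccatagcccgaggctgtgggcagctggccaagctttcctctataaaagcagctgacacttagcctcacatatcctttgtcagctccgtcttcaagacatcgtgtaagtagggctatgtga
S100a9: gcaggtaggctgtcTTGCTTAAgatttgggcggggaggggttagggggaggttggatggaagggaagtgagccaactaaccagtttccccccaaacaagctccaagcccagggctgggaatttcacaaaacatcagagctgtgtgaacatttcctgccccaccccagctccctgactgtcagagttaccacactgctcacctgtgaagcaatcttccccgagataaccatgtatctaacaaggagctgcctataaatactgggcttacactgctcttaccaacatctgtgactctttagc
Ngp: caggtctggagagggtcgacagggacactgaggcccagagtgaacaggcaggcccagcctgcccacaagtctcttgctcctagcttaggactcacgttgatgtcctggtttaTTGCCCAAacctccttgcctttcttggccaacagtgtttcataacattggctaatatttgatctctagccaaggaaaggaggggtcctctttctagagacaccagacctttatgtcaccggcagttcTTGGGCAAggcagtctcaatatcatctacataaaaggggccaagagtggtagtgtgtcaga
Mmp8: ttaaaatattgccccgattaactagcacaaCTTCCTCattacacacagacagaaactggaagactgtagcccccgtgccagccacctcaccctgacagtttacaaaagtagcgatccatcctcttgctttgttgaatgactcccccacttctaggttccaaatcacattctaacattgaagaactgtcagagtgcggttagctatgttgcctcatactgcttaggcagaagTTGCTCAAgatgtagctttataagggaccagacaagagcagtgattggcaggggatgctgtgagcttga

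S100a9 holds 1 C/EBP match (TTGCTTAA), Ngp holds 2 (TTGCCCAA and TTGGGCAA), Mmp8 holds 1 (TTGCTCAA) beside a PU.1 match, and S100a8 holds a PU.1 match (CTTCCTC) alone. The Ngp match nearest to the start spans positions -11 to -4, and that of Mmp8 positions -19 to -12, counted from the start. Of the 9 genes with a RefSeq window, 6 held TTGCNNAA, against 10.8% of all 32851 mouse windows of the same length. The other 3 were Ltf, Lcn2 and Retnlg. GAGGAAG was found in 4 of 9 (S100a8, Lcn2, Mmp8 and Csf3r), against 13.6% of all windows. With the full palindrome TTGCGCAA, which lies within TTGCNNAA, no window of the 9 matched, against 0.183% of all. The STAT letters TTCNNNGAA and the AP-1 letters TGANTCA matched in 0 of 9, against 8.3% and 7.81% of all windows. These are matches of letters in a short window, and binding was not measured. The windows held 2 to 9 CpG dinucleotides, with a median of 4, where all windows had a median of 7 and an upper quartile of 20. DNA methylation was not measured.

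The 4 tumour libraries held 21621580 to 25328708 counts, and the 6 EG7-OVA libraries 15690749 to 21048978. Levels are given as reads or as CPM, that is counts scaled to a common library size after TMM normalization. Replicates correlated across genes at r = 0.970 in P3 and 0.991 in P0 tumours. T lymphocyte markers such as Cd3e and Lck reached 1987 and 2125 CPM together in P3 tumours, against 2503 and 2271 CPM in P0 tumours, and in EG7-OVA cells to between 1589 and 2281 CPM. Nothing in the labels says that replicates came from separate animals or cultures, so that p-values measure the spread between these libraries, which may be technical. Counting intervals cover counting error only.

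In P3 tumours, the calprotectin genes S100a8 and S100a9, the granule gene Ngp and the metalloproteases Mmp8 and Mmp9 were higher than in P0 tumours, between 7.43-fold for Mmp8 and 54.9-fold for S100a8 in reads pooled over each group and scaled to library size. Of the other genes, Ltf, Retnlg and Lcn2 had higher means in P3 without passing the test, Camp had too few reads to be tested, and the G-CSF receptor gene Csf3r had a log2 fold change near 0. By edgeR's quasi-likelihood test with Benjamini-Hochberg adjustment over 19993 genes, 5 of the 9 genes that passed the filter on low counts were called higher at an adjusted p of 0.05 and none lower. The background was high, since 38.7% of all genes tested were called, 18.8% as higher and 19.9% as lower in P3. In unsorted tissue, more cells of a type and more RNA per cell cannot be told apart.

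S100a8 had 84 and 455 reads in the P3 libraries (3.72 and 19.97 CPM), against 2 and 8 reads in the P0 libraries (0.0947 and 0.318 CPM). S100a9, its partner in calprotectin, had 93 and 441 reads in P3 (4.11 and 19.35 CPM), against 1 and 9 reads in P0 (0.0473 and 0.358 CPM). For both genes the P3 libraries lay well above the P0 libraries, with the second P3 library the highest of the 4. The log2 fold changes were 5.76 ± 1.06 (SE) for S100a8 and 5.75 ± 1.06 for S100a9, with adjusted p = 0.0118 for each. The ratio of S100a8 to S100a9 reads was 0.903 (95% counting interval 0.664 to 1.23) in the first P3 library and 1.03 (0.903 to 1.18) in the second. In P0 libraries it was 2.0 (0.104 to 118) and 0.889 (0.298 to 2.60), where few reads leave it loosely set.

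Ngp, a cystatin-like protein of the secondary granules, had 42 and 144 reads in P3 against 3 and 4 reads in P0 tumours. The groups stood apart, and the log2 fold change was 4.71 ± 0.79 (adjusted p = 0.00921). Ltf encodes the iron-binding lactoferrin of the same granules and had 69 and 135 reads in P3 against 54 and 40 in P0. Its groups did not overlap either, but the log2 fold change of 1.12 ± 0.43 (95% interval 0.04 to 2.19) gave an adjusted p of 0.0891. Camp encodes the cathelicidin peptide and had 8 and 11 reads in P3 against 3 and 11 in P0, a ratio of 1.38 (0.657 to 2.98) that includes 1. A difference in Camp was not detectable at this depth. The 3 genes that neighbour each other on chromosome 9 thus gave 1 call, 1 difference that missed the threshold and 1 gene too low to test.

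Mmp8, the neutrophil collagenase, had 30 and 94 reads in P3 against 10 and 7 in P0 tumours. Mmp9, the gelatinase of the tertiary granules, had 425 and 1761 reads in P3 (18.8 and 77.3 CPM) against 86 and 75 in P0 (4.07 and 2.98 CPM). In both, each P3 library was above each P0 library. The log2 fold changes were 2.86 ± 0.68 for Mmp8 (adjusted p = 0.0251) and 3.77 ± 0.71 for Mmp9 (adjusted p = 0.0124). Mmp9 alone made up 44.4% and 48.7% of the reads of the 10 genes in P3 libraries, against 26.5% and 15.9% in P0 libraries.

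Lcn2, the siderophore-binding lipocalin, had 82 and 283 reads in P3 against 51 and 124 in P0 tumours, and the groups overlapped. Retnlg, a resistin-like secreted protein of mouse neutrophils, had 24 and 150 reads in P3 against 9 and 27 in P0, again with overlap. Neither passed, with log2 fold changes of 1.12 ± 0.64 for Lcn2 (95% interval -0.47 to 2.71, adjusted p = 0.209) and 2.32 ± 0.93 for Retnlg (0.01 to 4.63, adjusted p = 0.0970). Csf3r, the receptor through which G-CSF acts on neutrophils and their precursors, had 101 and 140 reads in P3 against 105 and 167 in P0. Its log2 fold change was -0.13 ± 0.28 (95% interval -0.82 to 0.55, adjusted p = 0.723).

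**Figure D1:**
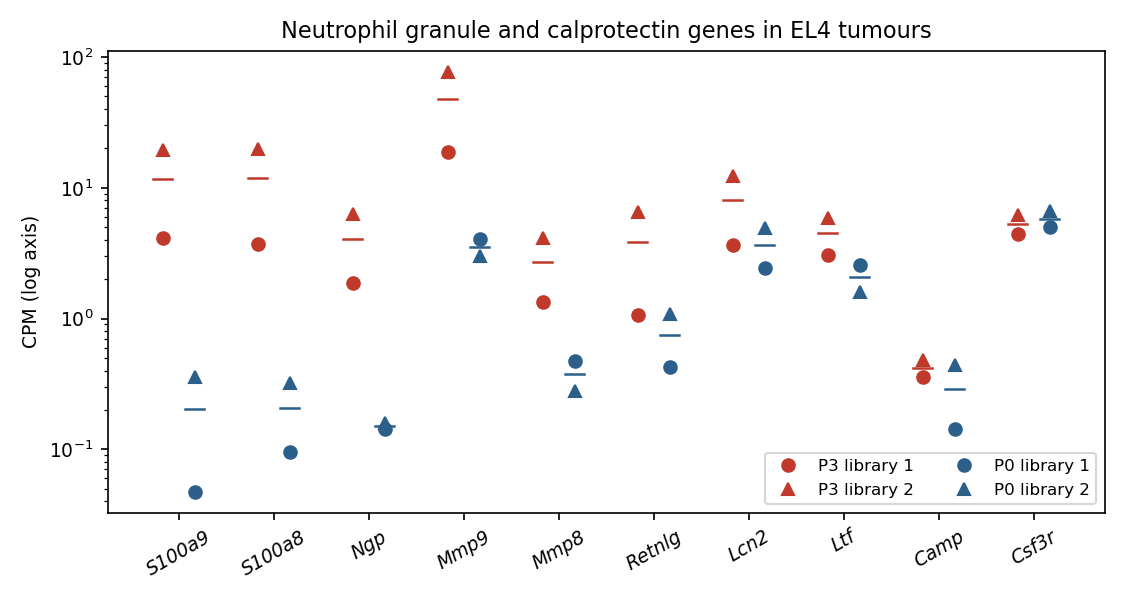
Level of each of the 10 genes in CPM (log axis) in every EL4 tumour library, with P3 left of P0, symbols for the 2 libraries of each group and a bar at their mean. S100a9, S100a8, Ngp, Mmp9, Mmp8 and Ltf show no overlap between groups, whereas Lcn2, Retnlg, Csf3r and Camp overlap. Of all genes tested, 76.1% did not overlap, and 37.6% did not overlap with P3 higher. The second P3 library is above the first for all 10 genes.

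The 10 genes were higher in the second P3 library than in the first without exception, by 1.36-fold for Camp to 6.20-fold for Retnlg, with a median of 3.41. Among all genes tested, the ratio was taken with 0.1 CPM added to both libraries, which was not done for the 10. Its median was 0.99, and 0.67% of genes were above 3. In P0 tumours the ratio ran from 0.588 for Mmp8 to 7.57 for S100a9, with a median of 1.69 and 7 of 10 genes above 1. The summed level of the 10 genes was 42.4 and 158.6 CPM in the P3 libraries, against 15.3 and 18.8 CPM in the P0 libraries.

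Without the second P3 library, S100a8 (log2 fold change 4.07), S100a9 (4.22), Ngp (3.56), Mmp8 (1.82) and Mmp9 (2.41) were still called by edgeR, with the spread taken from the P0 libraries alone, while Retnlg stood at 0.46 and Lcn2 at -0.04. DESeq2 on the same 3 libraries called 4 of these 5, with adjusted p = 0.288 for Mmp8. Without the first P3 library, 8 of the 10 genes were called, Ltf, Lcn2 and Retnlg among them, with S100a8 at 6.51 and S100a9 at 6.47. Leaving out either P0 library left edgeR with 0 calls among the 10 genes and among all genes. At unadjusted p under 0.05 it then had 3 and 4 of the 10, and DESeq2 on the same libraries called S100a8, S100a9 and Ngp. Without the second P0 library, the log2 fold change of S100a9 was 7.79 and that of S100a8 6.89, and without the first that of S100a9 was 5.0. On all 4 libraries limma-voom called Ngp and Mmp9, with adjusted p = 0.0711 for S100a8, 0.0631 for S100a9 and 0.0505 for Mmp8. Of 9 genes, 6 had groups that did not overlap, all with P3 higher, beside 76.1% of all genes tested with no overlap and 37.6% with P3 higher.

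Read per kilobase of exon, which allows genes to be set beside each other, S100a9 was the highest of the 10 in both P3 libraries, at 7.88 and 37.1 CPM per kb. S100a8 followed at 5.35 and 28.8, Mmp9 at 5.31 and 21.8 and Retnlg at 1.79 and 11.1 CPM per kb. In P0 libraries the order differed. Csf3r was highest in the first, at 1.38 CPM per kb, and Lcn2 in the second, at 1.88 CPM per kb, with Csf3r and Retnlg close behind at 1.84 and 1.81. S100a9 was the lowest of the 10 in the first P0 library, at 0.0907 CPM per kb, and stood in the fifth place in the second, at 0.686.

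The genes whose centred log2(CPM + 1) profile over the 10 libraries lay nearest to the mean of S100a8 and S100a9 are named next. Grik2, a glutamate receptor subunit, came first at a root mean square distance of 0.148, where a flat profile lies at 1.08. It had 74 and 338 reads in P3 against 3 and 6 in P0 tumours. Gm36347 (0.268), Rnase10 (0.357) and Glyat (0.372), a glycine N-acyltransferase, came next, and Ngp ranked 7 among 36982 genes at 0.389, with the S100 pair itself at ranks 1 and 2. Gm14206 (0.389), Nyap2 (0.394), 9630009A06Rik (0.395) and Smyd1 (0.409) completed the nearest 8 genes outside the set. Retnlg, Mmp8 and Mmp9 ranked 69, 74 and 96, and Csf3r ranked 9783. The distance is dominated by the tumour libraries, since both S100 genes were at 0 in the cultured cells.

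Other genes of the neutrophil programme did not share one direction in P3 tumours. Of 8 primary granule genes, 2 passed the filter and both were lower: Ctsc, the cathepsin that activates granule proteases, at 334 and 320 reads in P3 against 1682 and 2645 in P0 (log2 fold change -2.68 ± 0.16, adjusted p = 0.000879), and Prss57 at -1.86 ± 0.19 (adjusted p = 0.00258). Mpo, which encodes myeloperoxidase, had 2 and 2 reads in P3 against 0 and 6 in P0, and Elane, which encodes neutrophil elastase, had 2 and 0 reads against 2 and 1. Prtn3, proteinase 3, had 5 and 2 reads in P3 against 8 and 16 in P0. Ctsg, also too low to be tested, had 6 and 15 reads in P3 against 1 and 3 in P0. The median of the 2 tested genes was -2.27, against -0.0019 over all genes tested. Prss57 was also at 12.5 and 15.5 CPM in cultured EG7-OVA cells with DMSO. Which cells of the tumours held the transcripts of these 2 genes was not tested.

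Of 13 tested genes of other granule and secreted neutrophil products, 3 rose and 4 fell in P3 tumours, while 6 missed the threshold, at a median of -0.55. Olfm4, olfactomedin 4 of a subset of neutrophils, had 22 and 127 reads in P3 against 865 and 1105 in P0 (-3.69 ± 0.67, adjusted p = 0.0115). Wfdc17 was lower too, at 172 and 88 reads in P3 against 423 and 473 in P0 (-1.76 ± 0.33, adjusted p = 0.0121). Asprv1, an aspartic protease also known from skin, was higher, at 22 and 74 reads in P3 against 3 and 7 in P0 (3.27 ± 0.76, adjusted p = 0.0235). Without the second P3 library Olfm4 stood at -5.45 and Asprv1 at 2.14, and without the first at -2.92 and 3.89. None of the 5 stefin A genes in the table, protease inhibitors abundant in mouse neutrophils, passed the filter. The summed stefin reads were 5 and 35 in P3 against 0 and 12 in P0 tumours.

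Surface receptors divided in the same way, with 3 higher, 4 lower and 5 not passing of 12 tested, and a median of 0.08. Ly6g, the antigen by which mouse neutrophils are sorted, had 0 and 11 reads in P3 against 0 and 1 in P0 tumours and could not be tested. Cxcr2, the chemokine receptor of neutrophils, had 10 and 42 reads in P3 against 16 and 30 in P0 (0.22 ± 0.69, adjusted p = 0.816). The C-type lectins Clec4e and Clec4d, also known from monocytes and macrophages, were higher, with Clec4e at 1126 and 1251 reads in P3 against 143 and 200 in P0 (2.83 ± 0.14, adjusted p = 0.000560) and Clec4d at 2.22 ± 0.24 (adjusted p = 0.00302). Both were also found in cultured EG7-OVA cells with DMSO, Clec4e at 1.26 and 1.94 CPM and Clec4d at 1.91 and 1.79 CPM. In tumours, Ly6g was at 0 in 2 of the 4 libraries, and Mpo and Elane had at most 6 reads. Other neutrophil genes of these lists, chosen after their values were seen, went either way. Cxcr1 had 8 and 20 reads in P3 against 65 and 54 in P0. Chil3 had 69 and 159 reads in P3 against 265 and 334 in P0, and Pglyrp1 23 and 38 against 86 and 74. Cd177, a surface protein of neutrophils, had 16 and 60 reads in P3 against 1 and 7 in P0 (3.25 ± 0.93, adjusted p = 0.0409), and Fpr1, the formyl peptide receptor, had 12 and 31 reads in P3 against 2 and 2 in P0 (3.37 ± 0.74, adjusted p = 0.0194). Trem1, an activating receptor of myeloid cells, had 7 and 33 reads in P3 against 1 and 6 in P0 and did not pass the filter.

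Of 7 tested transcription factors of neutrophil development, none rose, 3 fell and 4 missed the threshold in P3 tumours, at a median of -0.97. Cebpe had 42 and 32 reads in P3 against 181 and 298 in P0 (-2.64 ± 0.29, adjusted p = 0.00313). Cebpa, which acts earlier in myeloid cells, had 75 and 33 reads in P3 against 424 and 500 in P0 (-3.07 ± 0.38, adjusted p = 0.00429). Spi1, which encodes PU.1, had 95 and 112 reads in P3 against 300 and 398 in P0 (-1.72 ± 0.19, adjusted p = 0.00317). Without the first P3 library Cebpa stood at -3.77. Cebpa and Spi1 are also expressed in macrophages or their precursors.

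Among attractants and growth factors, 3 were higher, 1 lower and 6 did not pass of 10 tested, with a median of 0.17. Csf3, which encodes G-CSF, had 27 and 20 reads in P3 against 8 and 6 in P0 (1.75 ± 0.46, adjusted p = 0.0318), a call that 9 of 13 alternatives did not keep, without the first P3 library and with a replicate block (adjusted p = 0.0544) among them. Tnf, a cytokine that activates neutrophils, had 368 and 350 reads in P3 against 151 and 149 in P0 (1.28 ± 0.18, adjusted p = 0.00583). Csf1, the macrophage growth factor, was lower at -0.91 ± 0.17 (adjusted p = 0.0124). The receptors that bind the secreted products gave 0 higher, 3 lower and 6 not passing of 9. Tlr4, a receptor of calprotectin, had 251 and 161 reads in P3 against 766 and 1181 in P0 (-2.20 ± 0.26, adjusted p = 0.00362), and Ager, which encodes RAGE, had 360 and 238 reads against 243 and 243 (0.32 ± 0.25, adjusted p = 0.345). Lrp1, an endocytic receptor of proteases and lactoferrin, was lower at -1.05 ± 0.25 (adjusted p = 0.0252), and Bsg, which encodes basigin, at -0.42 ± 0.12 (adjusted p = 0.0404, and 0.0864 with the library number as a replicate block). Medians were 0.11 for the receptors and -0.0019 for all genes.

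Inhibitors of the granule proteases gave 1 higher, 3 lower and 3 not passing of 7 tested, with a median of -1.26. Timp1, the inhibitor that binds MMP9, had 40 and 27 reads in P3 against 162 and 269 in P0 tumours (-2.63 ± 0.32, adjusted p = 0.00406). Slpi, which blocks neutrophil elastase, had 7 and 15 reads in P3 against 44 and 193 in P0 (-3.33 ± 0.76, adjusted p = 0.0219), and stood at -2.09 without the second P0 library and -3.98 without the first P0 or the second P3 library. Reck, a membrane-bound inhibitor of metalloproteases, was higher at 338 and 381 reads in P3 against 178 and 212 in P0 (0.91 ± 0.16, adjusted p = 0.0106). Mmp9 was thus higher in P3 tumours and Timp1 lower.

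The rest of the S100 family did not follow S100a8 and S100a9. Of 10 tested, none rose, 3 fell and 7 missed the threshold in P3 tumours, at a median of -0.29. S100a10, the partner of annexin A2, had 131 and 102 reads in P3 against 638 and 896 in P0 (-2.68 ± 0.19, adjusted p = 0.00122), and S100a1 (-0.94 ± 0.14, adjusted p = 0.00616) and S100a3 (-2.54 ± 0.49, adjusted p = 0.0136) were lower too, S100a3 at -3.21 without the second P3 library. The phagocyte NADPH oxidase, which makes superoxide in neutrophils and macrophages, was lower in 5 of its 6 tested genes, with 1 not passing and a median of -1.26. Ncf1 (-2.64 ± 0.28, adjusted p = 0.00299) and Cybb (-1.78 ± 0.31, adjusted p = 0.0102) were among the 5.

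**Figure D2:**
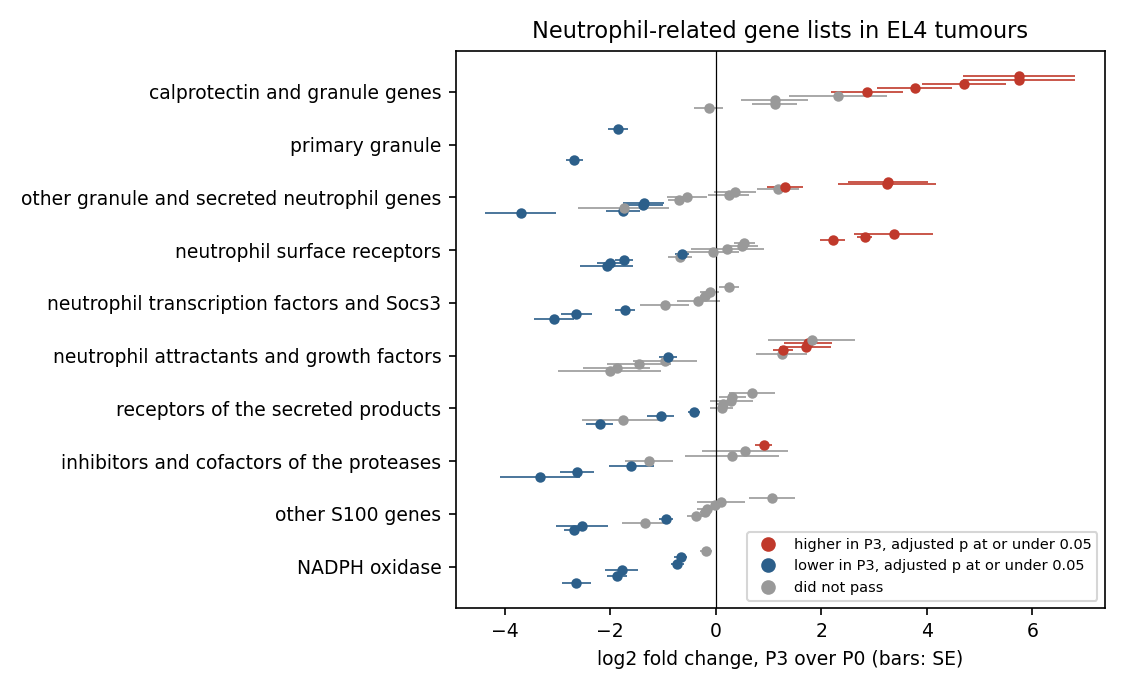
Log2 fold change of each tested gene in P3 over P0 tumours, with SE bars, by gene list, in red for genes called higher in P3, blue for genes called lower and grey for genes that did not pass. The calprotectin and granule genes reach 5.76. Lists of primary granule genes, transcription factors with Socs3, receptors of the secreted products, other S100 genes and NADPH oxidase hold no gene called higher.

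Markers of other cells differed between the tumours as well. Macrophage markers together reached 499.6 and 409.8 CPM in P3 libraries, against 1665 and 2003 CPM in the P0 libraries, and 14 of 15 were called lower and 1 higher. Dendritic cell markers stood at 47.3 and 48.4 CPM in P3 libraries, against 179 and 204.8 CPM in P0 libraries, with 8 of 10 lower. B cell markers summed to 64.0 and 69.2 CPM in P3 libraries, against 279.7 and 470.5 CPM in P0 libraries, with 8 of 8 tested lower. Of 5 tested mast cell and basophil markers, 1 was called higher, the mast cell protease gene Cpa3, at 198.8 and 152.1 CPM in P3 libraries, against 24.0 and 20.97 CPM in P0 libraries, and the list median was -0.71. The sum of the other markers was 8.62 and 4.83 CPM in P3 libraries, against 11.9 and 11.5 CPM in P0 libraries. Cpa3 was also at 5.90 to 251.5 CPM in the cultured EG7-OVA cells, where the other markers of this list summed to at most 0.784 CPM. Keratinocyte and epithelium markers, from cells that can make calprotectin and lipocalin 2, stood at 15.5 and 2.50 CPM in P3 libraries, against 23.1 and 14.3 CPM in P0 libraries, with 0 of 6 higher. Their lowest sum lay in the second P3 library, where Krt8, Krt18 and Krt19 had 2, 4 and 6 reads against 54, 82 and 104 in the first. Krt5, Krt14 and Trp63 had 8, 3 and 5 reads in the second against 0, 2 and 3 in the first. Fibroblast and endothelium markers were lowest in the second P3 library too, at 1157 and 431.5 CPM in P3 libraries, against 2710 and 2815 CPM in P0 libraries. Of these, 8 of 10 did not pass. Eosinophil markers were at 1.10 to 4.58 CPM, erythroid markers at 13.2 to 25.2 CPM and platelet markers at 10.5 to 14.8 CPM over the 4 libraries. The part of these cells in the results for the 10 genes was not tested.

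**Figure D3:**
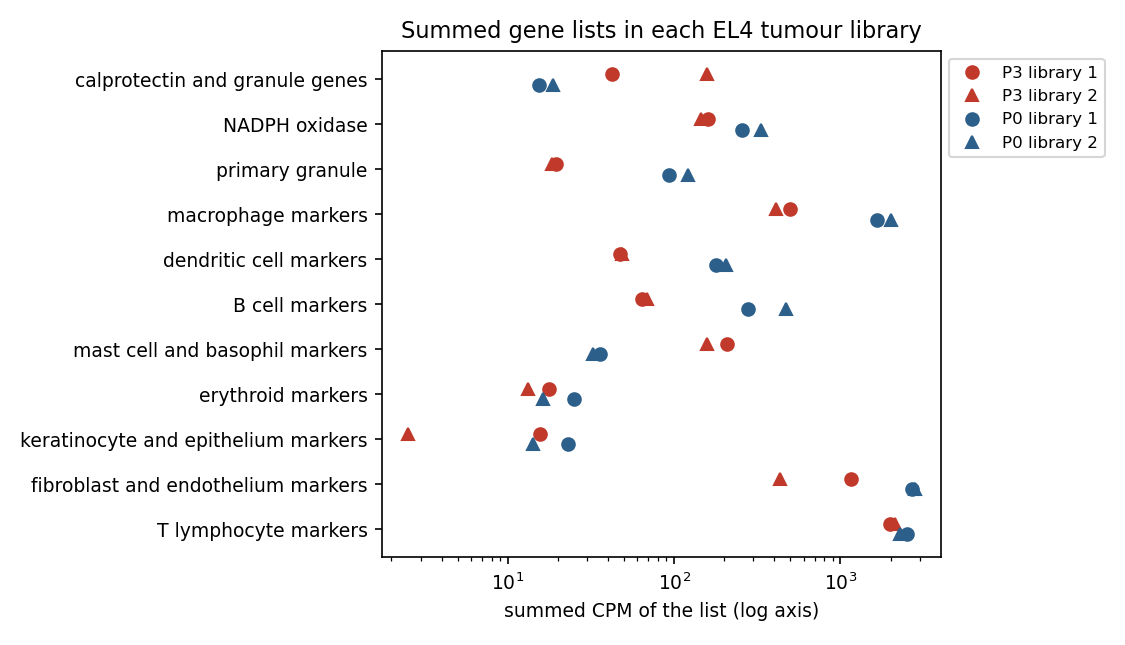
Summed level in CPM (log axis) of the 10 genes, of 2 related lists and of 8 marker lists of cell types in each EL4 tumour library, red for P3 and blue for P0. The 10 genes and the mast cell list, whose sum is mostly Cpa3, are higher in both P3 libraries. Macrophage, dendritic cell, B cell, NADPH oxidase and primary granule sums are higher in both P0 libraries. The primary granule sum is mostly Ctsc.

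In cultured EG7-OVA cells, Mmp9 was the only one of the 10 genes with enough reads to be tested, and it was higher with either drug. S100a8, S100a9, Ltf and Mmp8 had 0 reads in all 6 libraries, which allows at most 0.196 CPM in the shallowest of them. Azacytidine and decitabine are cytidine analogues that trap DNA methyltransferases. Their doses differed, so that each is set against DMSO and not against the other, and both comparisons share the same DMSO libraries. By edgeR over 19123 genes, the background of calls was 20.3% with azacytidine (13.6% higher and 6.7% lower) and 16.7% with decitabine (12.4% higher and 4.3% lower).

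Mmp9 had 48 and 17 reads with azacytidine and 34 and 48 with decitabine, against 0 and 2 with DMSO. Every drug library was above both DMSO libraries, as were those of 33.6% of all genes with azacytidine and 33.2% with decitabine, where 61.1% and 58.8% did not overlap in either direction. The log2 fold change was 5.19 ± 0.94 with azacytidine (adjusted p = 0.00397) and 5.26 ± 0.93 with decitabine (adjusted p = 0.00427). With 2 reads over the DMSO group, the ratio itself was loosely set, at 40.5 (95% counting interval 10.8 to 341) with azacytidine and 43.2 (11.6 to 363) with decitabine. Without the second DMSO library, which held both reads, the remaining control was at 0, and without the first the log2 fold changes were 4.26 with azacytidine and 4.34 with decitabine. Without the first azacytidine library the change was 4.14. Levels stayed low, at 3.14 and 1.01 CPM with azacytidine and 1.73 and 2.62 CPM with decitabine, against 0 and 0.0997 CPM with DMSO. In the tumour table, normalized separately and so not compared by a test, Mmp9 was at 18.8 and 77.3 CPM in P3 and 4.07 and 2.98 CPM in P0.

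The remaining genes were close to the limit of counting. Camp had 3 and 7 reads with azacytidine and 7 and 6 with decitabine, against 9 and 7 with DMSO. Ngp had 2 and 3 reads with azacytidine and 2 and 3 with decitabine, against 0 and 1 with DMSO. Lcn2 had 0 and 4 reads with azacytidine and 3 and 2 with decitabine, against 2 and 1 with DMSO. Csf3r had 0 and 2 reads with azacytidine and 0 and 0 with decitabine, against 0 and 4 with DMSO. Retnlg had 1 and 0 reads with either drug and none with DMSO. No difference in these 5 genes was detectable at this depth.

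**Figure D4:**
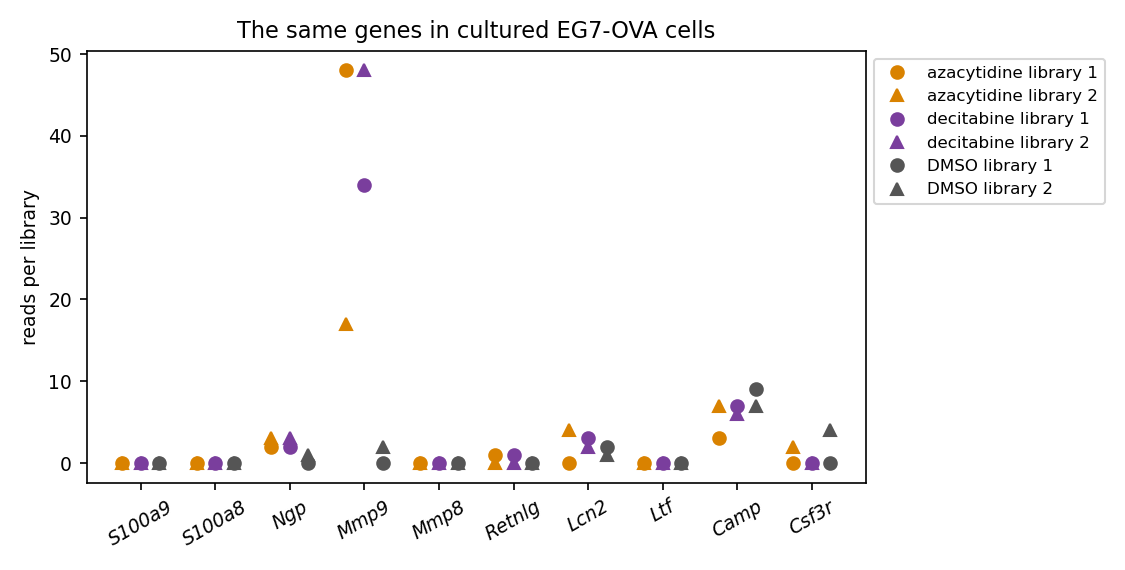
Reads of each of the 10 genes in every EG7-OVA library, with azacytidine and decitabine left of DMSO and symbols for the 2 libraries of each group. Mmp9 has 17 to 48 reads in the drug libraries and 0 to 2 with DMSO, and no other gene exceeds 9 reads.

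Several regulators of the granule programme were higher in the same cultures in which the granule genes had few or no reads. Of 7 transcription factors tested, azacytidine gave 5 higher, 1 lower and 1 that missed the threshold, and decitabine 3, 1 and 3. The median log2 fold changes were 1.30 with azacytidine and 0.53 with decitabine, against 0.033 and 0.036 over all genes tested. Gfi1 went the other way, at 29.9 and 19.1 CPM with azacytidine and 39.5 and 25.1 with decitabine, against 57 and 65.5 with DMSO. So did Cebpd, at 0.653 and 1.25 CPM with azacytidine and 1.12 and 0.929 with decitabine, against 2.01 and 2.14 with DMSO. Cebpe had 65 and 23 reads with azacytidine and 185 and 99 with decitabine, against 6 and 10 with DMSO. Its log2 fold change was 2.79 ± 0.63 with azacytidine (adjusted p = 0.0116) and 4.19 ± 0.63 with decitabine (adjusted p = 0.00186), and the azacytidine call was lost without the first azacytidine library (1.73) or the first DMSO library (2.45). Cebpa had 14 and 17 reads with azacytidine and 2 and 13 with decitabine, against none with DMSO, at least 12.9-fold and at least 5.27-fold higher (adjusted p = 0.0126 and 0.0475). The decitabine bound pools both libraries and rests mainly on the second, at 0.710 CPM against 0.102 CPM in the first. Spi1 had 158 and 67 reads with azacytidine and 198 and 89 with decitabine, against 0 and 7 with DMSO (5.30 ± 0.90, adjusted p = 0.00294, and 5.36 ± 0.90, adjusted p = 0.00329). Socs3, which curbs G-CSF receptor signalling, had 69 and 74 reads with azacytidine and 15 and 54 with decitabine, against 0 and 1 with DMSO. The ratio of Socs3 was 178 (31.5 to 7083) with azacytidine (adjusted p = 0.000812) and 72.7 (12.6 to 2913) with decitabine (adjusted p = 0.00333). All control reads of Spi1 and Socs3 lay in the second DMSO library, and without the first Spi1 stood at 4.3 with azacytidine and 4.39 with decitabine. Csf3r, the receptor itself, stayed at 0 to 4 reads as given above.

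Other granule-linked genes were higher with both drugs. Hdc, histidine decarboxylase of neutrophils and mast cells, had 246 and 132 reads with azacytidine and 365 and 283 with decitabine, against 6 and 14 with DMSO (4.56 ± 0.50, adjusted p = 0.000249, and 5.07 ± 0.50, adjusted p = 0.000198). Padi4, the enzyme that citrullinates histones in neutrophils, had 28 and 6 reads with azacytidine and 52 and 32 with decitabine, against none with DMSO. Set against a floor of 3 reads over the DMSO group, Padi4 was at least 14.1-fold higher with azacytidine and at least 29.5-fold higher with decitabine (adjusted p = 0.00785 and 0.00375). Without the first azacytidine library, Padi4 was at least 4.76-fold higher. Ctsc had 330 and 42 reads with azacytidine and 457 and 83 with decitabine, against 3 and 2 with DMSO (6.51 ± 1.26, adjusted p = 0.00568, and 6.72 ± 1.27, adjusted p = 0.00581). Without the first library of the drug, Ctsc stood at 4.22 with azacytidine and 5.06 with decitabine. Mpo stayed at 3 to 12 reads in the drug libraries, against 1 and 3 with DMSO, and Elane at 0 to 3 reads in the drug libraries, against none with DMSO. Of the primary granule list, 1 of 3 tested genes was higher with each drug, and of the other granule and secreted genes 2 of 7 with azacytidine and 4 of 7 with decitabine, with none lower. The medians of these lists were 0.89 and 0.66 with azacytidine and 0.83 and 1.05 with decitabine. No stefin A gene passed the filter.

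Receptors, attractants and the oxidase moved in part. Surface receptors gave 3 higher, 1 lower and 5 not passing of 9 with azacytidine, and 4, 0 and 5 with decitabine, with medians of 0.27 and 1.54. Fcgr4, an IgG receptor of mouse myeloid cells, had 22 and 5 reads with azacytidine and 50 and 19 with decitabine, against 1 and 1 with DMSO, for ratios of 16.8 (4.23 to 146) and 36.4 (9.69 to 306). Its adjusted p was 0.0252 with azacytidine, a call lost without either DMSO library or the first azacytidine library, and 0.00810 with decitabine, lost without the first decitabine library. Ltb4r1, the leukotriene B4 receptor, had 34 and 15 reads with azacytidine and 45 and 50 with decitabine, against 11 and 5 with DMSO (1.93 ± 0.60, adjusted p = 0.0474, and 2.63 ± 0.60, adjusted p = 0.0142). The decitabine call on Ltb4r1 was lost without the second decitabine library.

 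Among attractants and growth factors, 3 of 7 were higher with azacytidine and 4 of 7 with decitabine, none was lower, and the medians were 0.84 and 1.62. Il17a, a cytokine of T cells that acts upstream of G-CSF, had 79 and 41 reads with azacytidine and 221 and 143 with decitabine, against 16 and 6 with DMSO (2.77 ± 0.56, adjusted p = 0.00677, and 4.10 ± 0.57, adjusted p = 0.00112). Without the first azacytidine library Il17a stood at 2.10 and was not called. Its relative Il17f had 150 and 94 reads with azacytidine and 508 and 303 with decitabine, against 88 and 59 with DMSO, and was higher with decitabine (2.53 ± 0.39, adjusted p = 0.00196) while azacytidine missed the threshold (1.06 ± 0.38, adjusted p = 0.0752). Kitl, which encodes stem cell factor, was higher at 2.78 ± 0.69 with azacytidine (adjusted p = 0.0186), a call lost without the first library of that drug or of DMSO, and at 3.26 ± 0.70 with decitabine (adjusted p = 0.0109). Csf3 had 15 and 15 reads with azacytidine and 14 and 11 with decitabine, against 15 and 19 with DMSO, and did not pass (adjusted p = 0.885 and 0.697).

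Of the receptors of the secreted products, 4 of 8 were higher and none lower with each drug, with medians of 1.04 and 0.98. Cd14, a co-receptor of TLR4, had 36 and 18 reads with azacytidine and 44 and 51 with decitabine, against 1 and 2 with DMSO, for ratios of 22.4 (7.27 to 112) and 33.4 (11.1 to 164.7), with adjusted p = 0.00199 and 0.00111. Lrp1 was higher at 2.68 ± 0.46 (adjusted p = 0.00295) and 2.91 ± 0.46 (adjusted p = 0.00228). Tlr4 had 20 and 4 reads with azacytidine and 24 and 5 with decitabine, against 0 and 94 with DMSO, so that 1 control library sets its direction (-1.61 ± 1.38, adjusted p = 0.459, and -1.63 ± 1.35, adjusted p = 0.473). Ager did not pass, at adjusted p = 0.0573 and 0.121. Inhibitors of the proteases gave no call among 3 tested genes with either drug (medians 0.56 and 0.35), Timp1 among them (adjusted p = 0.530 and 0.708).

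In the S100 family, 2 of 7 tested genes were higher and none lower with each drug, with medians of 0.28 and 0.68. S100a10 had 110 and 107 reads with azacytidine and 97 and 138 with decitabine, against none with DMSO, which makes it at least 90.1-fold and at least 82.6-fold higher (adjusted p = 8.55e-05 and 0.000112). S100a6 had 1848 and 1528 reads with azacytidine and 2292 and 2068 with decitabine, against 653 and 903 with DMSO (1.44 ± 0.21, adjusted p = 0.00119, and 1.56 ± 0.21, adjusted p = 0.000919). S100a8 and S100a9 in the same cells were at 0. The NADPH oxidase had 2 of 5 tested genes higher with azacytidine and 5 of 5 with decitabine, none lower, and medians of 1.41 and 1.70. Rac2 was higher at 1.04 ± 0.19 (adjusted p = 0.00455) and 0.94 ± 0.19 (adjusted p = 0.00880), calls lost without the first azacytidine library (0.75, adjusted p = 0.0737) and without the second decitabine library (0.91, adjusted p = 0.0579). Ncf4 was higher at 1.13 ± 0.31 (adjusted p = 0.0273) and 1.37 ± 0.31 (adjusted p = 0.0136). The Ncf4 calls were lost without the first DMSO library (0.88 and 1.14) and without the first library of the drug (0.58 and 1.07).

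Ly6g had 0 to 2 reads in each of the 6 libraries and Cxcr2 0 to 2 as well, so that the defining neutrophil markers were at or near 0 in the cultures. Macrophage markers summed to 53.6 and 60.6 CPM with azacytidine and 76.6 and 76.5 CPM with decitabine, against 40.6 and 39.9 CPM with DMSO, with 6 to 8 of 15 markers at 0 in a library and 4 of 8 tested higher with each drug. Keratinocyte and epithelium markers summed to 7.91 and 7.63 CPM with azacytidine and 4.08 and 8.85 CPM with decitabine, against 0.352 and 0.150 CPM with DMSO, where 9 and 10 of 12 were at 0, and 4 of 5 tested were higher with each drug. T lymphocyte markers gave 2 higher and 1 lower of 10 with azacytidine and 3 higher with decitabine. Their part in these results was not tested.

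**Figure D5:**
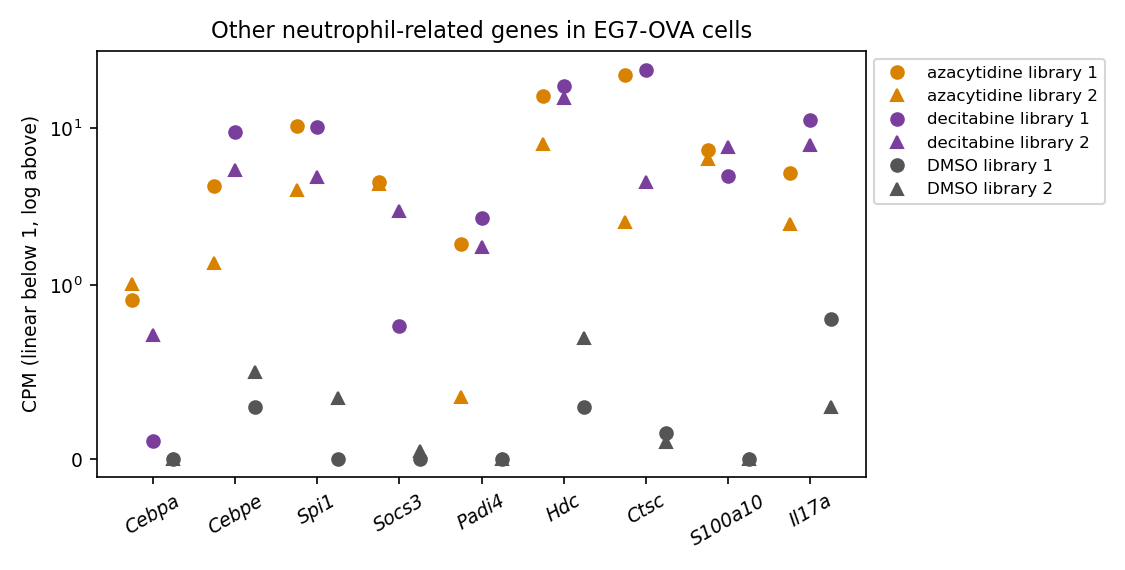
Level of 9 further neutrophil-related genes in CPM (axis linear below 1 and logarithmic above) in every EG7-OVA library, with azacytidine and decitabine left of DMSO. All 9 genes are above both DMSO libraries in every drug library, and Cebpa, S100a10 and Padi4 have no read with DMSO.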

How the data were processed

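Total RNA was sequenced per the labels. The tumour table holds raw counts per gene as deposited by the authors, made with fastp, Trim Galore, STAR and featureCounts on mm10 and GRCh38, whose roles and versions the submitters' processing notes leave out. The EG7-OVA table holds estimated counts per gene, from the same list of tools, that the authors deposited unnormalized. In it 145 values, in 62 of 55969 genes, were not whole, and these were rounded. Genes passing filterByExpr (19993 and 19123) were fitted with TMM and the quasi-likelihood test of edgeR 4.0.16 in R 4.3.3, each table on its own, 1 mean per group, two-sided, with Benjamini-Hochberg adjustment over all genes and a threshold of 0.05. Intervals are 95%. Ratios have exact counting intervals, and a group without reads was set at 3 reads. Alternatives used DESeq2 1.42.0 and limma 3.58.1. The pipeline was tested on simulated data. Positions came from GENCODE vM21 and promoters from RefSeq, which matched 9 of 10 genes.

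The 10 genes and the further lists were chosen with earlier results of these data known. Named genes were the 10, a fixed set (Ly6g, Cxcr2, Mpo, Elane, Prtn3, Cebpe, Csf3, Timp1, Tlr4 and Ager), up to 3 called genes of smallest p per list in tumours and up to 2 per list and drug, and the 8 nearest profiles (log2 of CPM + 1). Cebpa, Gfi1, Cebpd, Prss57, Clec4e and Clec4d in cultured cells were added after their values were seen. So were Cpa3, Ctsg, Cd177, Fpr1, Trem1, Cxcr1, Chil3, Pglyrp1, single keratinocyte and epithelium genes and the summed stefin reads. The NKYS libraries were not used here. Socs3 stood in the list of transcription factors and was left out of its counts after its values were seen. A few genes that this rule names are not reported here.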

Additional observations from a re-analysis of the deposited data

How the results depend on the processing

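The Mmp9 calls in EG7-OVA cells held under all 13 alternatives with each drug. The 5 calls among the granule and calprotectin genes in tumours held with edgeR under median-ratio size factors, no filter, a stricter filter (1 CPM in both libraries of a group and 100 reads in all), and with DESeq2 on all libraries. Limma-voom called 2. Leaving out a library in turn gave 0 to 8 of the 10 genes and 0 to 11286 genes in all with edgeR. The 0 came without either P0 library, where 3 and 4 of the 10 genes and 5571 and 5768 of all genes had an unadjusted p under 0.05. The group that loses a library then has 1, assumed to vary like the other group, so that without a P3 library the spread is that of the P0 libraries, and 10163 and 11286 genes were called. DESeq2 without each library, chosen after seeing the data, gave 3 to 8 of the 10, and 2267 and 2201 genes without the first and the second P0 library against 5848 and 6347 without a P3 library. Counts without each library ran from 1675 to 3897 with azacytidine and from 1520 to 3290 with decitabine. The cause was not tested.

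Directions reversed only for genes that were not called. In tumours Lcn2 ran from -0.043 to 1.75 when single libraries were left out (-0.026 by DESeq2 without the second P3 library), Csf3r from -0.39 to 0.091 (0.090 and 0.074 by DESeq2 without the first P3 and the second P0 library), Ager from -0.0031 to 0.58 (-0.0071 by DESeq2 without the first P3 library) and Cxcr2 from -1.16 to 0.91 (-1.15 and -0.081 by DESeq2 without the second P3 and the first P0 library, -0.082 by limma-voom). In cells Csf3 with azacytidine ran from -0.038 to 0.26, and Tlr4 from -3.28 to 6.78 with azacytidine and from -3.10 to 6.77 with decitabine (0.75 and 0.85 by limma-voom). Promoter matches numbered 0 of 9 with the full C/EBP palindrome.

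With the library number as a replicate block, 6 of the 10 genes were called, Retnlg (adjusted p = 0.0328) being the added one, with 5490 genes in tumours, 3609 with azacytidine and 2954 with decitabine, while Csf3 (0.0544) and Bsg (0.0864) lost their calls. The deviations of same-numbered libraries correlated at r = -0.037 in tumours, and in cells at -0.257 between azacytidine and DMSO, -0.191 between decitabine and DMSO and 0.273 between azacytidine and decitabine. With 2 libraries per group, a negative r means that libraries of unlike number deviated together. DMSO titles number 2 and 3 where library names say 1 and 2. Whether the samples were paired, by either numbering, was thus not settled. Depth limits the EG7-OVA values, where 9 of the 10 genes did not reach the filter.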
